A study of Mus musculus with 18 samples.

Results

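The heat shock response and the unfolded protein response were followed through 10 genes in 3 brain regions of mice with and without the transcription factor Nrf2: Hspb1, Hspa1a, Hspa1b, Hspa8, Dnajb1, Hspa5, Xbp1, Atf4, Ddit3 and Atf3. They are 10 of the 22672 genes tested, and were chosen by name: every array probe annotated to one of them was taken, which gave 14 of the 41174 probes. The 18 arrays were Agilent 1-colour arrays of total RNA from unstressed male 129SV mice. They formed 6 groups of 3 arrays: cortex, hippocampus and brainstem of Nrf2 wild-type (Nrf2WT) mice, and the same regions of Nrf2 knockout (Nrf2KO) mice. No age is given in the labels, nor how the knockout allele was made, and no group received a treatment. The labels number the mice 1 to 3 within each genotype in every region, so that same-numbered arrays of a genotype were read as regions of 1 mouse.

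Cells answer damaged or unfolded protein with separate programmes in separate compartments. In the cytosol, heat shock factor 1 is held inactive by chaperones and, once freed, binds heat shock elements in the promoters of the chaperone genes themselves. In the endoplasmic reticulum (ER), the chaperone BiP keeps the sensors IRE1, PERK and ATF6 quiet. When BiP is drawn away, IRE1 splices Xbp1 mRNA, ATF6 is cut into a transcription factor, and PERK slows translation while favouring that of ATF4, which then drives Ddit3 and, with other signals, Atf3. PERK has also been reported to act on Nrf2, the main regulator of antioxidant genes. Much of this regulation lies in splicing, cleavage and translation, which these arrays do not measure.

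The promoters of 9 of the 10 genes were in the RefSeq table (build GRCm38.p6), and the 250 bases before each start were searched on both strands. The heat shock element pair, written GAANNTTC or TTCNNGAA, stood in Hspb1, Hspa1a and Hspa1b and in 12.8% of all 32851 promoters. The ER stress response element, CCAAT and CCACG with 9 bases between them, stood only in Hspa5 among the promoters searched for these genes and in 0.113% of all promoters. The 4 promoters that hold either element are shown, since these elements are what the heat shock and ER stress programmes act through. Each runs 5′ to 3′ on the strand of the gene, with the matched element in capitals (the heat shock element pair in the first 3, the ER stress response element in Hspa5).
Hspb1, chr5:135887669-135887918, plus strand: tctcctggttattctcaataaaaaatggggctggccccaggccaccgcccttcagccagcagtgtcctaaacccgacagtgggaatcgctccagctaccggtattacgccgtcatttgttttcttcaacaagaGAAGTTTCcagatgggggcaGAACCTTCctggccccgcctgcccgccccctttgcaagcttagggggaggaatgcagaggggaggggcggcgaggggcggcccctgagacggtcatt
Hspa1a, chr17:34972157-34972406, minus strand: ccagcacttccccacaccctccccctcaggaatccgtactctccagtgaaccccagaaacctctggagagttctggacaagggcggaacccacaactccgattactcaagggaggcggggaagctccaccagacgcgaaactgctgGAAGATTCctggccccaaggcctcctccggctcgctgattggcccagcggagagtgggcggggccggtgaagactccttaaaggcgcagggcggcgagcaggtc
Hspa1b, chr17:34959239-34959488, minus strand: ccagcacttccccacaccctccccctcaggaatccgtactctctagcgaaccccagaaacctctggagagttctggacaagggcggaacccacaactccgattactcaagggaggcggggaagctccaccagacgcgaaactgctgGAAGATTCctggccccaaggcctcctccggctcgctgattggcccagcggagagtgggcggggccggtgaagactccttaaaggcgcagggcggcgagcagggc
Hspa5, chr2:34771840-34772089, plus strand: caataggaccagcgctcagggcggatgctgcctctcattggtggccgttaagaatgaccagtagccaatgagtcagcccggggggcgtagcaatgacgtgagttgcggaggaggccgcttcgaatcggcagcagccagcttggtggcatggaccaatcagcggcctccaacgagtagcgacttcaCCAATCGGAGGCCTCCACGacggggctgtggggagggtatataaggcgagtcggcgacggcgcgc
The windows of Hspa1a and Hspa1b were the same at 247 of 250 positions (98.8%), with the element at the same distance from the start, positions -104 to -97. Hspb1 held a pair of such elements, the nearer one at -97 to -90. The antioxidant response element to which Nrf2 binds, TGACNNNGC, stood in the Dnajb1 promoter among these genes and in 10.2% of all promoters. The cAMP response element TGACGTCA was found in no member's window and in 1.55% of all promoters. A match is a description of letters, and binding was not measured.

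Levels are log2 signals minus the 75th percentile of the same array, so 0 is a bright but not extreme probe and 1 unit is a doubling. All 14 probes were well above background on all 18 arrays. Between 65.3% and 75.1% of spots were well above background per array, no spot was saturated, and the number of arrays limits the precision. The Nfe2l2 probe, which reads the deleted gene, lay between -8.39 and -3.62 on the 9 knockout arrays and between 0.79 and 1.39 on the 9 wild-type arrays, so that the titles and the probe matched. Markers of the 3 regions followed the titles as well: 7 of 8 cortex markers were called lower in wild-type brainstem than in cortex, 7 of 8 hippocampus markers higher in hippocampus than in cortex, and 7 of 8 brainstem markers higher in brainstem than in cortex. Wild-type and knockout arrays of a region shared slides, whereas cortex shared no slide with the other regions, so that slide and region cannot be told apart in comparisons with cortex. In whole tissue, fewer cells of a type and less RNA per cell cannot be told apart.

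**Figure D1:**
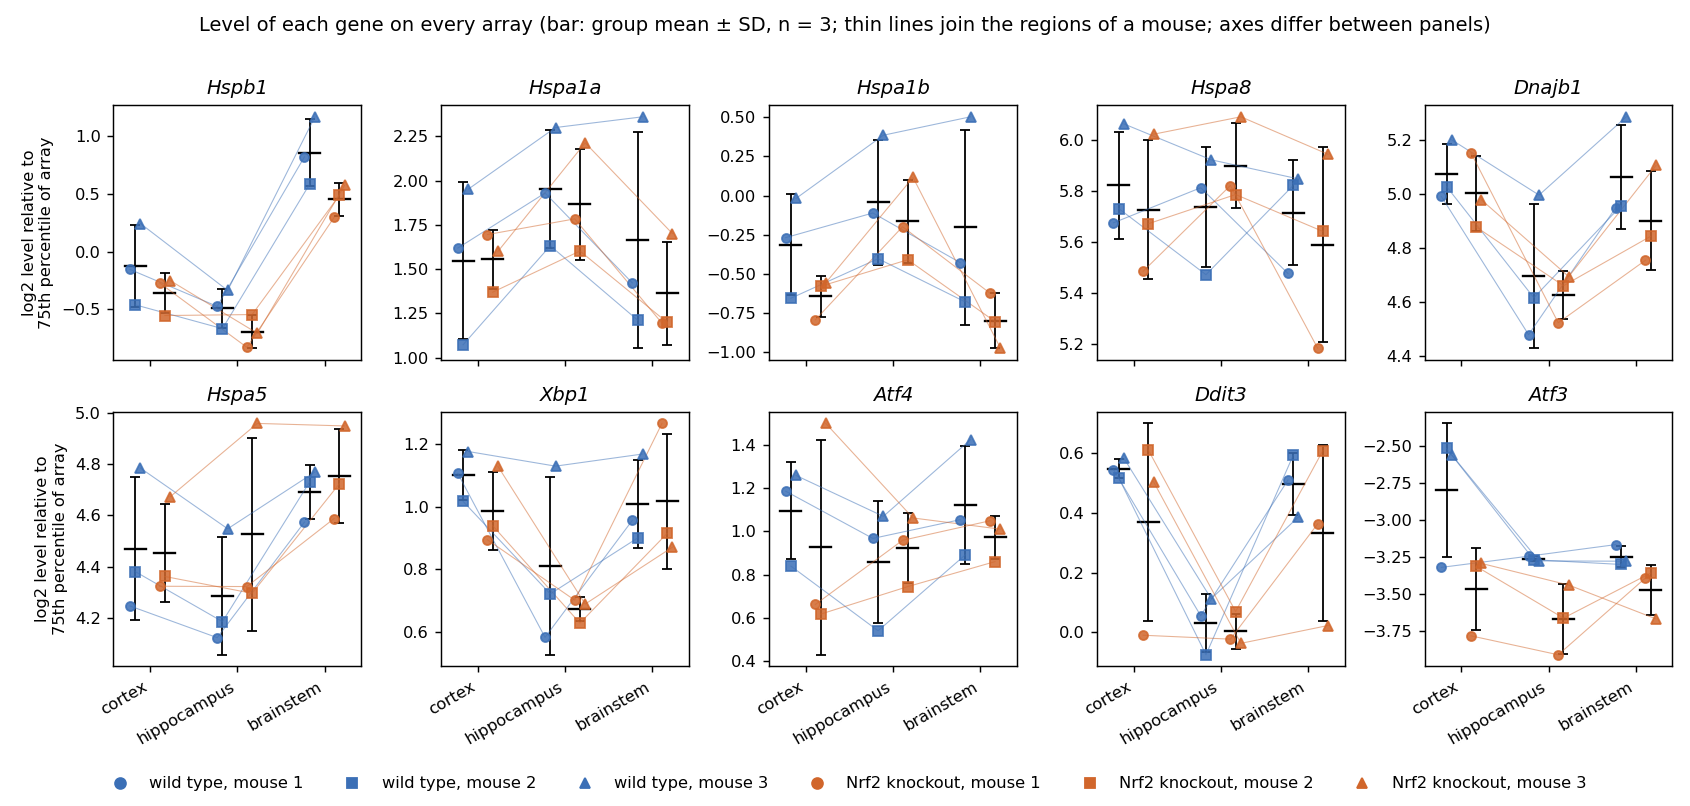
The log2 level (relative to the 75th percentile of the array, vertical axis) of each gene is plotted for every array by region, with wild type in blue, knockout in orange and the mouse number as the symbol. Bars are the group mean ± SD of 3 mice and thin lines join the regions of a mouse. Hspb1 is highest in brainstem in all 6 mice, Dnajb1, Ddit3 and Xbp1 dip in hippocampus, and Hspa1a and Hspa1b are higher in hippocampus than in cortex in each mouse.

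None of the 10 genes passed the test for a difference between knockout and wild type. Knockout minus wild type was called (limma, adjusted p under 0.05, Benjamini-Hochberg over all genes) for 0 of 10 genes in cortex, where 0.0309% of all genes were called, for 0 of 10 in hippocampus (0.0176% of all genes) and for 0 of 10 in brainstem (0.0309% of all genes). Averaged over the 3 regions it was called for 0 of 10 (0.0529% of all genes, 12 genes). With the mouse number, shared by both genotypes, as a block, 23 genes were called and still none of the 10. The knockout effect differed between no pair of regions for any of the 10 (0% of all genes in each of the 3 tests; limma gave 189, 200 and 222 genes at an unadjusted p under 0.05). At unadjusted p under 0.05, 496 genes stood in cortex, 301 in hippocampus, 670 in brainstem and 1576 in the mean of the regions. Most of the differences were nevertheless below 0: 9 of 10 in cortex with a median of -0.14 (0.00 over all genes), 7 of 10 in hippocampus with -0.08 (0.02), 8 of 10 in brainstem with -0.16 (0.00) and 9 of 10 in the mean with -0.11 (0.00). The 10 genes share arrays, and several rose and fell together from array to array, so these counts are a description.

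**Figure D2:**
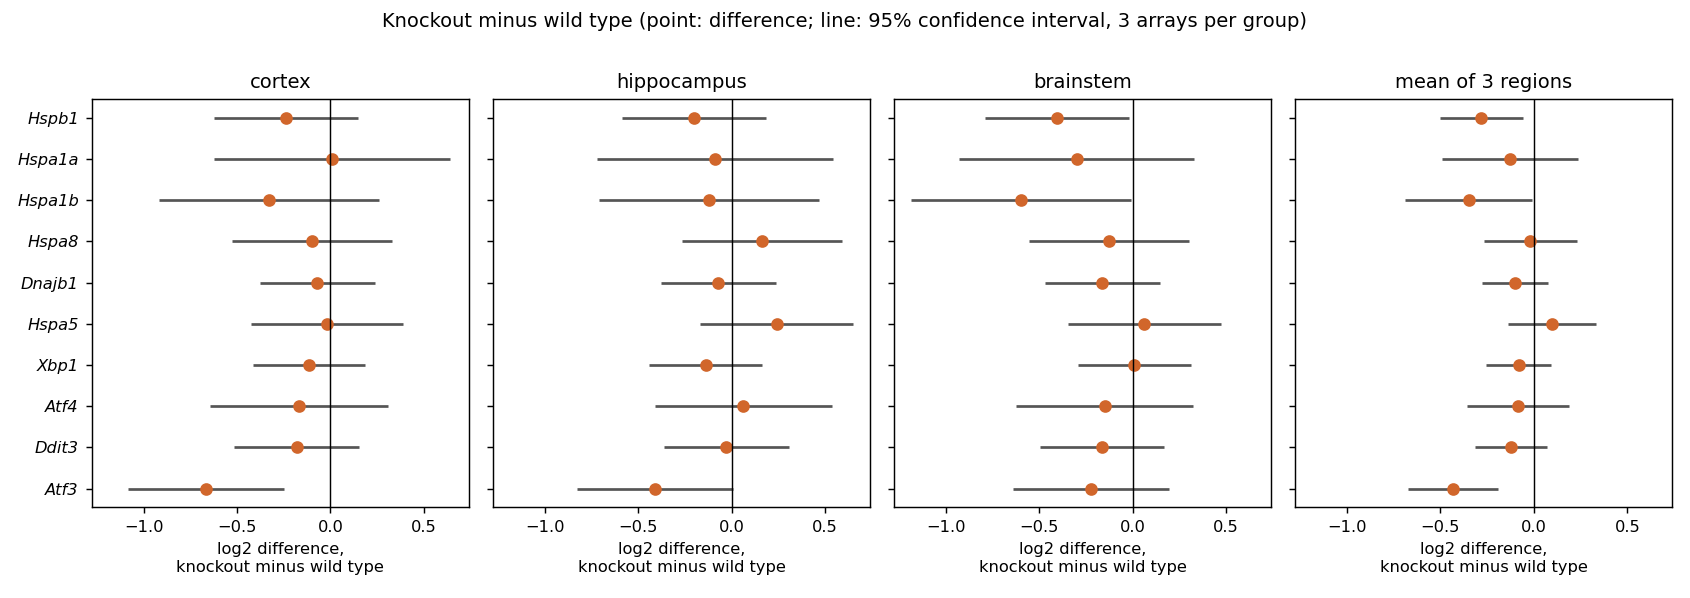
Knockout minus wild type on the log2 scale (horizontal axis) for each gene in cortex, hippocampus and brainstem and averaged over them; points are differences from the fit over 18 arrays and lines their 95% confidence intervals. Atf3 lies furthest below 0 in cortex, at -0.66, and intervals for most genes span 0. The averaged intervals count the regions of a mouse as independent.

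Atf3, a stress-induced transcription factor that is also an immediate early gene of neurons, had the largest difference. In wild-type cortex it read -3.32, -2.51 and -2.56 in mice 1, 2 and 3, and in knockout cortex -3.78, -3.31 and -3.29. The groups overlapped, because wild-type mouse 1 lay as low as knockout mice 2 and 3. The difference was -0.66 ± 0.20 (SE; unadjusted p = 0.0042, limma adjusted p = 0.9999). In hippocampus the wild-type arrays lay within a narrow band, -3.24, -3.27 and -3.27, and the knockout arrays all lay below it, at -3.91, -3.66 and -3.44, a difference of -0.41 ± 0.20. In brainstem the wild-type values were -3.16, -3.30 and -3.28 and the knockout values -3.39, -3.36 and -3.67, again without overlap, with a difference of -0.22 ± 0.20. Averaged over regions Atf3 was lower by -0.43 ± 0.11 (SE, with a 95% interval of -0.67 to -0.19 and limma's unadjusted p = 0.0018). Limma's adjusted p was 0.551, so Atf3 did not pass over all genes. This fit counted the regions of a mouse as independent, so the SE, interval and p may overstate the precision. With the mouse number, shared by both genotypes, as a block limma's adjusted p was 0.179. That block does not model single mice. Without the low wild-type cortex of mouse 1 the adjusted p was 0.0748, and over 26 alternatives it ran from 0.0748 to 0.9999. Normexp background correction shrank the mean difference of Atf3, a dim probe, to -0.20. Within slides the cortex difference was -0.63 on the slide with mice 1 and 2 and -0.73 on the slide with mouse 3. Of 22 immediate early genes of neurons (Fos, Arc, Egr1 and others), 16 of 22 lay below 0 in cortex (median -0.18), 19 of 22 in hippocampus (median -0.29) and 11 of 22 in brainstem (median -0.01). Over all genes 50.3%, 56.9% and 50.6% lay above 0 in cortex, hippocampus and brainstem. None of the 22 was called. Their summed linear level ran from 182 to 251 in knockout and from 200 to 272 in wild-type cortex, and from 106 to 137 against 132 to 175 in hippocampus. Their part in the Atf3 result was not tested.

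Hspb1 is the small heat shock protein Hsp27, which holds unfolding proteins in a refoldable state. On the probe that stands for each gene, Hspb1 was the other gene with knockout and wild-type arrays apart in a region. In brainstem the wild-type arrays read 0.82, 0.59 and 1.17 and the knockout arrays 0.30, 0.49 and 0.57, all below the lowest wild-type array. The brainstem difference was -0.41 ± 0.18 (SE; 95% interval -0.79 to -0.02, unadjusted p = 0.0401, limma adjusted p = 0.9999), while cortex and hippocampus gave -0.24 ± 0.18 and -0.20 ± 0.18 with overlapping groups. All 6 Hspb1 differences within slides were below 0, from -0.60 to -0.11. All 6 also were for Atf3, Hspa1b and Ddit3, though Ddit3 was at only -0.002 in hippocampus on 1 slide. These differences split the same arrays, and the share of all genes with all 6 below 0 was not counted. The Hspb1 mean over regions was -0.28 ± 0.10, with the same limit on its SE as for Atf3, and a limma adjusted p of 0.708. On the probes that stand for the genes, every knockout array lay below every wild-type array for 0 of the 10 in cortex (3.1% of all genes). The same held for Atf3 alone in hippocampus (2.69%), and for Atf3 and Hspb1 in brainstem (3.03%). Of the second probes, that of Hspa1b did so in cortex (-0.56 ± 0.37) and that of Dnajb1 in brainstem (-0.27 ± 0.14), neither called.

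Hspa1b, 1 of the pair of genes for inducible Hsp70, gave the largest brainstem difference, -0.60 ± 0.27 (SE; unadjusted p = 0.0462, limma adjusted p = 0.9999). It rested on 1 array: wild-type brainstem read -0.43, -0.68 and 0.50 in mice 1, 2 and 3, and knockout brainstem -0.62, -0.81 and -0.97. Within slides the brainstem difference was -0.16 for mice 1 and 2 and -1.48 for mouse 3. In cortex the Hspa1b difference was -0.33, and averaged over regions it was -0.35 (limma adjusted p = 0.719). In brainstem the other Hspa1b probe, near the dim end at -5.38 to -3.32, gave -0.62 ± 0.37. The other Hspa1a probe gave -0.48 ± 0.27. Its near twin Hspa1a gave -0.30 ± 0.29 in brainstem and 0.01 ± 0.29 in cortex. Since the pair of coding sequences is nearly the same, a probe named for one may also read the other.

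For the other genes the intervals give a rough guide to what size of change could have been missed. Averaged over regions, Hspa5, the gene of the ER chaperone BiP, gave 0.09 (95% interval -0.14 to 0.33), Hspa8, the constitutive Hsc70, -0.02 (-0.27 to 0.23), and Dnajb1, the Hsp40 co-chaperone, -0.10 (-0.28 to 0.08). Xbp1, whose spliced form drives ER folding genes, gave -0.08 (-0.25 to 0.09). Atf4, which directs amino acid and redox genes under PERK, gave -0.09 (-0.36 to 0.19), and Ddit3, the gene of CHOP, -0.12 (-0.32 to 0.07). On the probe that stands for each gene, changes of this average beyond about those bounds lie outside the intervals of this fit. The fit counts the regions of a mouse as independent arrays. Of 18 such pairs of regions, 14 deviated together with r over 0.1. The bounds may therefore be too narrow, and somewhat larger changes are not excluded. The bounds are not for single regions. The other Dnajb1 probe gave -0.21 ± 0.08 for the same average (unadjusted p = 0.0270, limma adjusted p = 0.769). The other Hspa8 probe gave -0.10 ± 0.09 (limma adjusted p = 0.818).

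More of the genes passed the test between regions than between genotypes. Hspb1 was higher in brainstem, Dnajb1, Ddit3 and Xbp1 were lower in hippocampus, and, once each mouse was set against itself, Hspa1a and Hspa1b were higher in hippocampus and Hspa5 was higher in brainstem. With 1 mean per group, members called in wild type numbered 1 lower in hippocampus than cortex (17.2% of all genes were called), 1 higher in brainstem than cortex (35.8%) and 2 higher in brainstem than hippocampus (41.5%). In knockout they numbered 0 (16.6%), 1 higher (35.6%) and 1 higher (40.6%). Averaging both genotypes, a comparison added after these values were seen, gave 4 lower in hippocampus than cortex (32% of all genes), 1 higher in brainstem than cortex (50.3%) and 4 higher in brainstem than hippocampus (56.7%). The share of the 10 genes called lay below that of all genes in 8 of these 9 comparisons and was 40% against 32% in the other.

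The mouse as a block, which rests on reading same-numbered arrays of a genotype as 1 mouse, changed several of these calls. In wild type it gave 3 lower in hippocampus than cortex (22.5% of all genes), 1 higher in brainstem than cortex (41.9%) and 4 higher in brainstem than hippocampus (48.5%). In knockout it gave 1 lower (22.1%), 2 higher (41.2%), and 2 higher with 2 lower (47.5%). Over both genotypes it gave 4 lower and 2 higher in hippocampus than cortex (39.3%), 2 higher in brainstem than cortex (55.9%), and 5 higher and 2 lower in brainstem than hippocampus (62.2%). All p-values of the next paragraphs are limma's, adjusted over all 22672 genes.

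**Figure D3:**
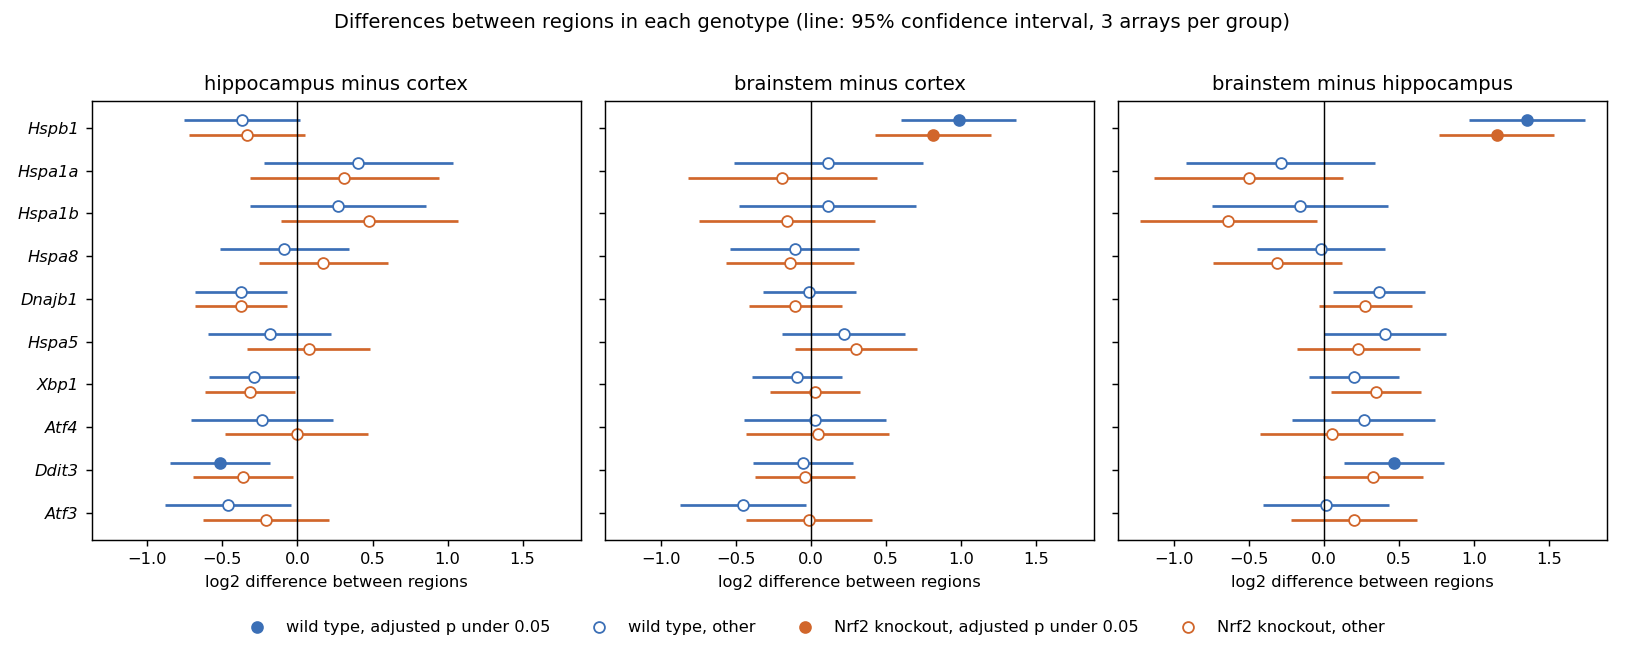
Differences between regions on the log2 scale (horizontal axis) for each gene, with wild type in blue and knockout in orange; lines are 95% confidence intervals from the fit with 1 mean per group and filled points mark adjusted p under 0.05. Hspb1 stands apart in both brainstem comparisons, at 0.98 and 1.35 in wild type, and Ddit3 is the other gene with filled points.

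Hspb1 read -0.16, -0.46 and 0.24 in wild-type cortex, -0.48, -0.67 and -0.34 in hippocampus and 0.82, 0.59 and 1.17 in brainstem. All brainstem arrays of a genotype lay above all its cortex and hippocampus arrays. In wild type the brainstem exceeded cortex by 0.98 ± 0.18 (SE; 1.98-fold, adjusted p = 0.00057) and hippocampus by 1.35 ± 0.18 (2.56-fold, adjusted p = 2.7e-05). In knockout, on separate mice, the differences were 0.81 ± 0.18 (adjusted p = 0.0025) and 1.15 ± 0.18 (adjusted p = 0.00013). Brainstem was highest in 6 of 6 mice. The order was therefore brainstem, cortex, hippocampus, and the step from cortex to hippocampus was smaller: -0.35 ± 0.13 over both genotypes (adjusted p = 0.0468; 0.0065 with the mouse as a block), lower in 5 of 6 mice. Without the block that smaller step lost its call when any 1 of 11 of the 18 arrays was left out, at adjusted p of 0.0501 to 0.114. On the 1 slide that held both brainstem and hippocampus, of mouse 3 and of mouse 1, Hspb1 was higher in brainstem by 1.65 in wild type and 1.41 in knockout. Oligodendrocyte and myelin markers were also higher in brainstem. In wild type 11 of 11 were called higher than cortex (median 1.14) and 10 of 11 higher than hippocampus (median 0.99). Of all genes, 35.8% and 41.5% were called in these comparisons, in either direction. Their summed levels were 350 to 412 in brainstem, 177 to 209 in cortex and 195 to 242 in hippocampus. These markers thus did not share the lower level of Hspb1 in hippocampus than cortex. Astrocyte markers were called higher in 6 of 10 and lower in 2 of 10 in brainstem against cortex. Markers of meninges and fibroblasts were called higher in 3 of 8, with summed levels of 21.9 to 26.6 in wild-type brainstem, 14.6 to 16.9 in cortex and 14.4 to 19.7 in hippocampus. Endothelial and mural markers were called higher in 2 of 10, with 27.1 to 31.6, 18.8 to 25.9 and 19.3 to 24.2. Their part in the Hspb1 result was not tested.

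Hspa1a and Hspa1b took another order. Hspa1a read 1.62, 1.07 and 1.95 in wild-type cortex, 1.93, 1.63 and 2.30 in hippocampus and 1.42, 1.21 and 2.36 in brainstem. Its knockout values were 1.70, 1.37 and 1.60 in cortex, 1.78, 1.60 and 2.21 in hippocampus and 1.20, 1.20 and 1.70 in brainstem. The groups overlapped, but in 6 of 6 mice hippocampus exceeded cortex and in 5 of 6 it exceeded brainstem. With the mouse as a block and both genotypes averaged, hippocampus exceeded cortex by 0.36 ± 0.10 (1.28-fold, adjusted p = 0.0162) and brainstem lay below hippocampus by -0.40 ± 0.10 (adjusted p = 0.0056). Without the block the same differences had adjusted p of 0.208 and 0.120. Hspa1b, whose promoter is nearly the same, gave 0.38 ± 0.11 (adjusted p = 0.0245) and -0.40 ± 0.11 (adjusted p = 0.0112) with the block, and hippocampus exceeded cortex in 6 of 6 mice. Without the block these had adjusted p of 0.158 and 0.0945. The other Hspa1b probe, fitted without the block, gave 0.27 ± 0.26 (adjusted p = 0.476) and -0.14 ± 0.26 (0.661), and the other Hspa1a probe 0.30 ± 0.19 (0.252) and -0.41 ± 0.19 (0.0813). Leaving out 1 mouse at a time kept the brainstem against hippocampus call for Hspa1a in 6 of 6 fits and for Hspa1b in 5 of 6 (the exception was wild-type mouse 2, adjusted p = 0.0550). The hippocampus against cortex call held in 4 of 6 for Hspa1a, and was lost without wild-type mouse 2 (adjusted p = 0.0856) or knockout mouse 3 (0.0566). For Hspa1b it held in 2 of 6, and was lost without any wild-type mouse or knockout mouse 1, at adjusted p of 0.0542 to 0.0789. On the slide shared by brainstem of mouse 3 and hippocampus of mouse 1, Hspa1a was higher in brainstem by 0.43 in wild type and lower by -0.08 in knockout, and Hspa1b by 0.61 and -0.77, which compares different mice.

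Dnajb1, which delivers clients to Hsp70, took a different order across regions from Hspa1a, the lowest values being in hippocampus. Wild-type hippocampus read 4.48, 4.62 and 4.997 against 4.99, 5.03 and 5.20 in cortex and 4.95, 4.96 and 5.29 in brainstem, and knockout hippocampus 4.52, 4.66 and 4.69 against 5.15, 4.88 and 4.98 in cortex. Hippocampus was lowest in 6 of 6 mice. Over both genotypes it lay below cortex by -0.38 ± 0.10 (adjusted p = 0.0109, and 0.0029 with the mouse as a block) and brainstem exceeded it by 0.32 ± 0.10 (adjusted p = 0.0145, and 0.0036 with the block). On the 1 shared slide, brainstem of mouse 3 exceeded hippocampus of mouse 1 by 0.81 in wild type and 0.58 in knockout, more than any difference within a mouse (0.18 to 0.47). Cortex and brainstem differed by less than the spread between mice, -0.06 ± 0.10. The second Dnajb1 probe gave -0.25 ± 0.10 for hippocampus against cortex, which missed the threshold (adjusted p = 0.0769).

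Hspa8 depended on the probe. The brighter probe, which stands for the gene, read 5.68, 5.73 and 6.06 in wild-type cortex and 5.48, 5.82 and 5.85 in brainstem and showed no call in any region comparison. The other Hspa8 probe read 4.52, 4.44 and 4.30 in wild-type cortex, 4.55, 4.36 and 4.56 in hippocampus and 5.01, 4.88 and 5.10 in brainstem. On it brainstem exceeded cortex by 0.57 ± 0.15 (adjusted p = 0.0076) and hippocampus by 0.51 ± 0.15 (adjusted p = 0.0141), with no overlap. In knockout the same probe gave 0.38 ± 0.15 (adjusted p = 0.0607) and 0.33 ± 0.15 (adjusted p = 0.0986). Which probe reads the gene as a whole cannot be told from these data.

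Among the ER genes, Hspa5 was higher in brainstem. Wild-type hippocampus read 4.12, 4.19 and 4.55 and wild-type brainstem 4.57, 4.73 and 4.77, without overlap, and cortex overlapped both at 4.25, 4.38 and 4.78. Knockout values were 4.32, 4.36 and 4.67 in cortex, 4.32, 4.30 and 4.96 in hippocampus and 4.59, 4.72 and 4.95 in brainstem. Brainstem exceeded hippocampus in 5 of 6 mice and cortex in 5 of 6. On the 1 shared slide, brainstem of mouse 3 exceeded hippocampus of mouse 1 by 0.65 in wild type and 0.63 in knockout, more than any difference within a mouse (highest 0.55), and Hspa5 read high on the arrays of mice 3. With the mouse as a block and both genotypes averaged, the differences were 0.32 ± 0.07 (1.25-fold, adjusted p = 0.0033) and 0.26 ± 0.07 (adjusted p = 0.0110). Without the block they had adjusted p of 0.0583 and 0.124. The call against hippocampus held in 6 of 6 fits that left out 1 mouse, and that against cortex in 4 of 6, the exceptions being wild-type mice 1 (adjusted p = 0.0635) and 2 (0.0633). Xbp1 was lowest in hippocampus in 6 of 6 mice, at 0.58, 0.72 and 1.13 in wild type and 0.70, 0.63 and 0.69 in knockout, against 0.89 to 1.18 in cortex and 0.87 to 1.27 in brainstem. Hippocampus lay below cortex by -0.30 ± 0.10 (adjusted p = 0.0307) and below brainstem by 0.27 ± 0.10 (adjusted p = 0.0305). Without the block these calls were fragile: 7 of the 18 arrays ended the first when left out (adjusted p of 0.0520 to 0.0850) and 5 ended the second (0.0589 to 0.0849), and quantile normalization ended both (0.0600 and 0.0518). On the 1 shared slide, brainstem of mouse 3 exceeded hippocampus of mouse 1 by 0.59 in wild type and 0.17 in knockout, against 0.04 to 0.57 within a mouse. The probe's annotation does not separate the spliced from the unspliced transcript. With the block, leaving out 1 mouse kept the Xbp1 call in 3 of 6 fits against cortex and 4 of 6 against brainstem; wild-type mice 1 and 2 ended both (adjusted p of 0.0589 to 0.0969).

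Ddit3, the gene of the pro-apoptotic factor CHOP, was also lowest in hippocampus. It read 0.55, 0.52 and 0.58 in wild-type cortex, 0.06, -0.07 and 0.11 in hippocampus and 0.51, 0.59 and 0.39 in brainstem. The wild-type hippocampus arrays lay below all other wild-type arrays. Hippocampus minus cortex was -0.52 ± 0.16 (1.43-fold lower, adjusted p = 0.0337) and brainstem minus hippocampus 0.47 ± 0.16 (adjusted p = 0.0263). In knockout, cortex of mouse 1 at -0.01 and brainstem of mouse 3 at 0.02 lay as low as hippocampus (-0.02, 0.07 and -0.04), and the differences were -0.36 ± 0.16 (adjusted p = 0.133) and 0.33 ± 0.16 (adjusted p = 0.108). Over both genotypes they were -0.44 ± 0.11 and 0.40 ± 0.11, with adjusted p of 0.0068 and 0.0067, and hippocampus was lowest in 6 of 6 mice. With slide as a random block the wild-type differences had adjusted p of 0.0794 and 0.0636, and hippocampus minus cortex over both genotypes had 0.0513. On the 1 shared slide, brainstem of mouse 3 exceeded hippocampus of mouse 1 by 0.33 in wild type and 0.05 in knockout. The wild-type call against cortex was lost when any 1 of its 6 arrays was left out, at adjusted p of 0.0514 to 0.119, and that against brainstem without hippocampus mouse 1 or 2 or brainstem mouse 1 or 2, at 0.0553 to 0.0893.

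Atf4 and Atf3, the other transcription factors, showed no call between regions in either genotype. Atf4 means ran from 0.86 ± 0.28 (SD, n = 3) in wild-type hippocampus to 1.12 ± 0.27 in wild-type brainstem, a range smaller than the spread within groups. Atf3 was highest in wild-type cortex, at -2.80 ± 0.45, against -3.26 ± 0.02 in hippocampus and -3.25 ± 0.07 in brainstem, with adjusted p of 0.125 and 0.0891. That cortex mean again rested on mice 2 and 3, since mouse 1 read -3.32. Without that array Atf3 was called lower than cortex in hippocampus, by -0.73 ± 0.16 (adjusted p = 0.0098), and in brainstem, by -0.71 ± 0.16 (0.0043). Normexp also called both (0.0197 and 0.0126), and quantile normalization the second (0.0430). The region differences of the knockout groups were -0.21 ± 0.20 and -0.01 ± 0.20.

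Several of the genes shared a further pattern that neither region nor genotype gives, on the arrays of mouse 3. On the 6 arrays of mice numbered 3, 50 of 60 values lay above their group mean (83.3%; 45.1% over all genes). Mice numbered 1 had 21 of 60 and mice numbered 2 had 15 of 60. Hspa1a, Hspa5, Hspa8 and Atf4 lay above the group mean on 6 of 6 such arrays, by an average of 0.36, 0.25, 0.23 and 0.24, and Hspb1, Hspa1b, Dnajb1 and Xbp1 on 5 of 6. Ddit3 and Atf3 did so on 3 of 6. The share of all genes above their group mean on 6 of 6 or 5 of 6 of these arrays was not counted. Wild-type and knockout arrays of mice 3 deviated together, with r of 0.59 in cortex, 0.24 in hippocampus and 0.62 in brainstem. The 60 values come from genes that share arrays, and several of these genes rose and fell together, so the counts are a description. Wild-type mouse 3 and knockout mouse 3 are different animals, so the pattern holds for a number that both genotypes share. Quantile normalization gave 51 of 60 and normexp background correction 51 of 60. The arrays of mice 3 lay together on 1 slide in cortex, apart from mice 1 and 2, on a slide with mice 2 in hippocampus, and on a slide with hippocampus of mice 1 in brainstem. What the number stood for in the handling of the mice is not given in the labels, and its part in the result was not tested.

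**Figure D4:**
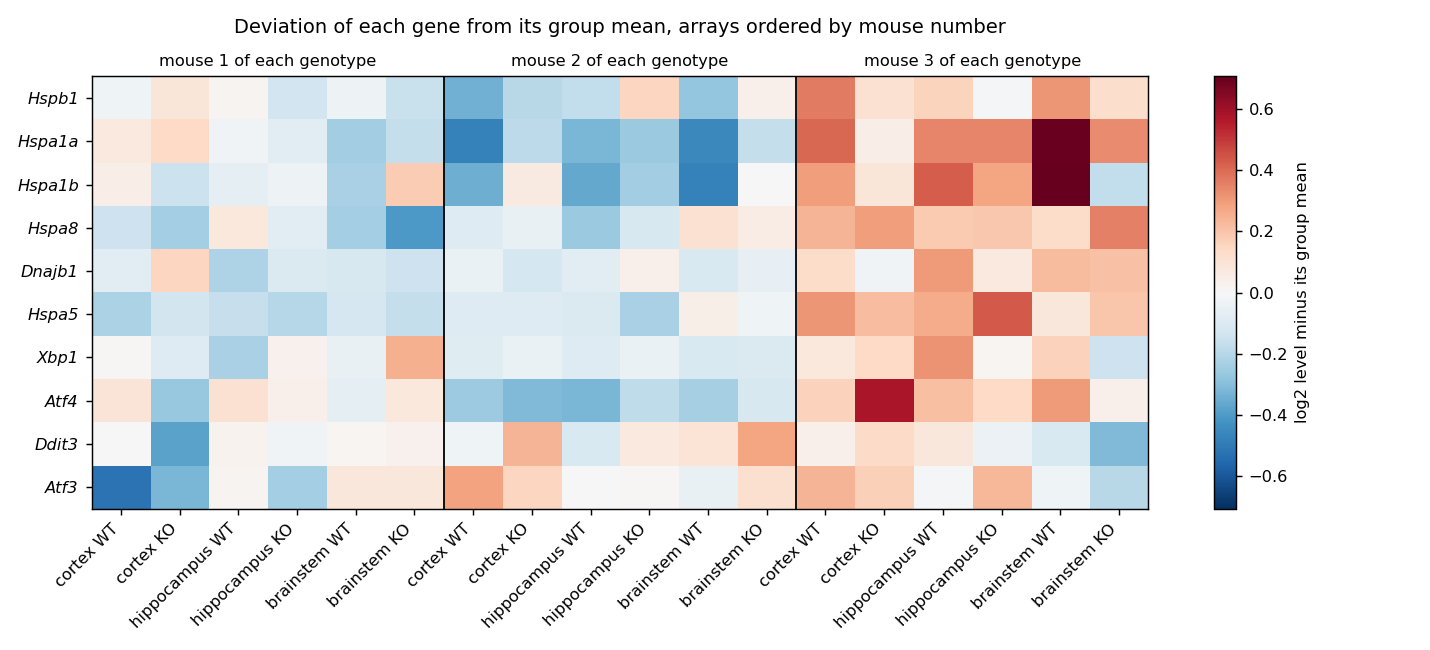
Each cell is the log2 level of a gene minus the mean of its group of 3, with arrays ordered by mouse number and red above and blue below the mean. The 6 arrays of mice numbered 3, on the right, are red for most heat shock and ER genes, with 50 of 60 values above 0, and Ddit3 and Atf3 do not follow.

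The spread within groups was widest for Hspa1a, with an SD of 0.39, and Hspa1b, 0.36, which put them at the 81.3 and 78.1 percentiles of all genes, and narrowest for Xbp1 at 0.17, against 0.22 for the median gene. Deviations from the group mean ran together for some pairs over the 18 arrays, which share mice, slides and scaling and are given as a description. Hspa1a and Hspa1b had a Pearson r of 0.82 (Spearman rho 0.78, and r 0.70 without the pair of arrays farthest from the median), Hspb1 and Hspa1a 0.81 (rho 0.76, then 0.75), and Hspa5 and Hspa8 0.79 (rho 0.79, then 0.79). By level over the 18 arrays, the gene most like Hspb1 among 18973 others was Serpind1 (r = 0.97, rho = 0.96), and next Slc38a2 (r = 0.96, rho = 0.91). For Ddit3 the nearest were Eno2 (r = 0.96) and Arhgdig (0.94), and for Hspa5 BC019941 and 2410004B18Rik (both 0.90). Hspa1b had Hspa1a as its nearest gene (0.83) and the transcript NAP001627-002 as its second (0.83), while Hspa1a had Ythdf1 (0.86) and Fastkd5 (0.84). Hspa8 was followed by AK006763 (0.90) and Elp3 (0.89), Dnajb1 by Ppm1a (0.89) and Eif4g2 (0.88), and Xbp1 by Dip2b (0.89) and Prkacb (0.88). Atf4 had AK147382 (0.85) and Stau1 (0.81), and Atf3 had the weakest match, Tpgs1 and Nrd1 (both 0.77).

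The wider pathway was read from 4 lists. None of its 132 genes tested was called by limma in knockout against wild type, in any region or in their mean. Of 43 cytosolic chaperones and heat shock factors, 16 were called between brainstem and cortex in wild type (13 higher, 3 lower; median 0.20) and 21 between brainstem and hippocampus (16 higher, 5 lower; median 0.23). These are 37.2% and 48.8% of the list, against 35.8% and 41.5% of all genes. In knockout the counts were 12 higher with 3 lower, and 12 higher with 5 lower (34.9% and 39.5%, against 35.6% and 40.6% of all genes), so the shares lay near the background. Bag3, the Hsp70 co-chaperone that feeds selective autophagy together with the small heat shock protein Hspb8, was higher in wild-type brainstem than cortex by 1.62 ± 0.14 (3.07-fold). Cryab (alpha B-crystallin) was higher by 0.94 ± 0.16 and Hspb8 by 0.84 ± 0.11, the direction that Hspb1 took. Hspb3 went the other way by -3.23 ± 0.17 (9.38-fold lower), as did Hspa2 by -1.05 ± 0.16 and Dnaja4 by -0.32 ± 0.09. Hippocampus was highest for Fkbp5, a glucocorticoid-induced Hsp90 co-chaperone, with 1.24 ± 0.25 over cortex (2.36-fold), and for Hspa2, with 0.73 ± 0.16, and Hspa12a was higher there than in cortex by 0.47 ± 0.09. Hsf4, a heat shock factor, was lower in hippocampus than cortex by -1.02 ± 0.19, and Hspb2 by -0.53 ± 0.14. Adjusted p of these named differences ran up to 0.0160. All were above background on every array of both groups.

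ER chaperones and degradation factors called between brainstem and another region were all higher in brainstem within each genotype. Of 34, 6 were higher and 0 lower in wild-type brainstem than cortex (median 0.12), 10 higher and 0 lower than hippocampus (median 0.18), and 0 higher with 1 lower in hippocampus than cortex. In knockout the counts were 5 with 0, 9 with 0, and 0 with 1, where 35.6%, 40.6% and 16.6% of all genes were called. Over both genotypes 15 were higher and 1 lower in brainstem than hippocampus, where 56.7% of all genes were called. The shares called in wild type, 17.6%, 29.4% and 2.94%, lay below those of all genes (35.8%, 41.5% and 17.2%). The shares in knockout and the share over both genotypes also lay below those of all genes. Dnajc3, the BiP co-chaperone that also restrains PERK, was higher in wild-type brainstem than cortex by 0.86 ± 0.10 (1.81-fold), Derl1 of the retrotranslocation channel by 0.60 ± 0.11 and the folding sensor Uggt1 by 0.41 ± 0.14. Against hippocampus Dnajc3 was higher by 0.58 ± 0.10, and the disulfide oxidases Ero1b and Ero1a by 0.56 ± 0.08 and 0.54 ± 0.11. In knockout P4hb, a disulfide isomerase, was higher in brainstem than cortex by 0.37 ± 0.08 and Derl2 higher than hippocampus by 0.46 ± 0.13. Os9, a lectin of ER-associated degradation, was the gene called between hippocampus and cortex, at -0.36 ± 0.09.

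The 24 listed genes of the unfolded protein response, mainly its sensors and transcription factors, split. In wild-type brainstem against cortex 3 were higher and 5 lower, against hippocampus 7 and 5, and in knockout 5 with 6 and 7 with 6. The shares called were 33.3% and 50% in wild type, against 35.8% and 41.5% of all genes, and 45.8% and 54.2% in knockout, against 35.6% and 40.6%. Ern2, the epithelial form of IRE1, was higher in brainstem than cortex by 1.61 ± 0.37, Creb3l2 by 0.92 ± 0.22 and the kinase Eif2ak2 (PKR) by 0.65 ± 0.17. Wfs1, which is also in the list of hippocampus markers, was lower by -1.14 ± 0.17, Bbc3 by -0.89 ± 0.16 and the sensor Atf6 by -0.83 ± 0.12. Nupr1 was lower in hippocampus than cortex by -1.35 ± 0.13 and Cebpb higher by 0.78 ± 0.22, and Cebpb was lower in brainstem than hippocampus by -1.23 ± 0.22. In knockout Atf6b was lower in brainstem than hippocampus by -0.72 ± 0.13 and Tmbim6 higher by 0.56 ± 0.14.

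The last list held 31 tested genes named as targets of ATF4 and CHOP, and regulation by either factor was not measured. Of these, 3 were higher and 3 lower in wild-type brainstem than cortex, 7 and 2 against hippocampus, and 1 and 5 in hippocampus against cortex. In knockout the counts were 3 with 3, 5 with 3 and 1 with 3. The shares called in the brainstem comparisons, 19.4% and 29% in wild type and 19.4% and 25.8% in knockout, lay below those of all genes (35.8%, 41.5%, 35.6% and 40.6%), and 19.4% in wild-type hippocampus against cortex lay near the 17.2% of all genes. Stc2 (1.32 ± 0.30), the folate enzyme Mthfd2 (1.18 ± 0.23) and the serine enzyme Psat1 (0.52 ± 0.13) were higher in wild-type brainstem than cortex. Eif4ebp1, the translation inhibitor 4E-BP1, was lower by -1.50 ± 0.10, Atf7ip by -0.91 ± 0.14 and Jdp2 by -0.55 ± 0.12. Trib3, a pseudokinase induced by CHOP, was higher in brainstem than hippocampus by 0.98 ± 0.20. In hippocampus against cortex Eif4ebp1 was lower by -0.82 ± 0.10, Jdp2 by -0.40 ± 0.12 and Wars by -0.39 ± 0.10, and Pck2 was higher by 0.31 ± 0.09. In knockout Gadd45a was higher in brainstem than hippocampus by 0.91 ± 0.24.

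**Figure D5:**
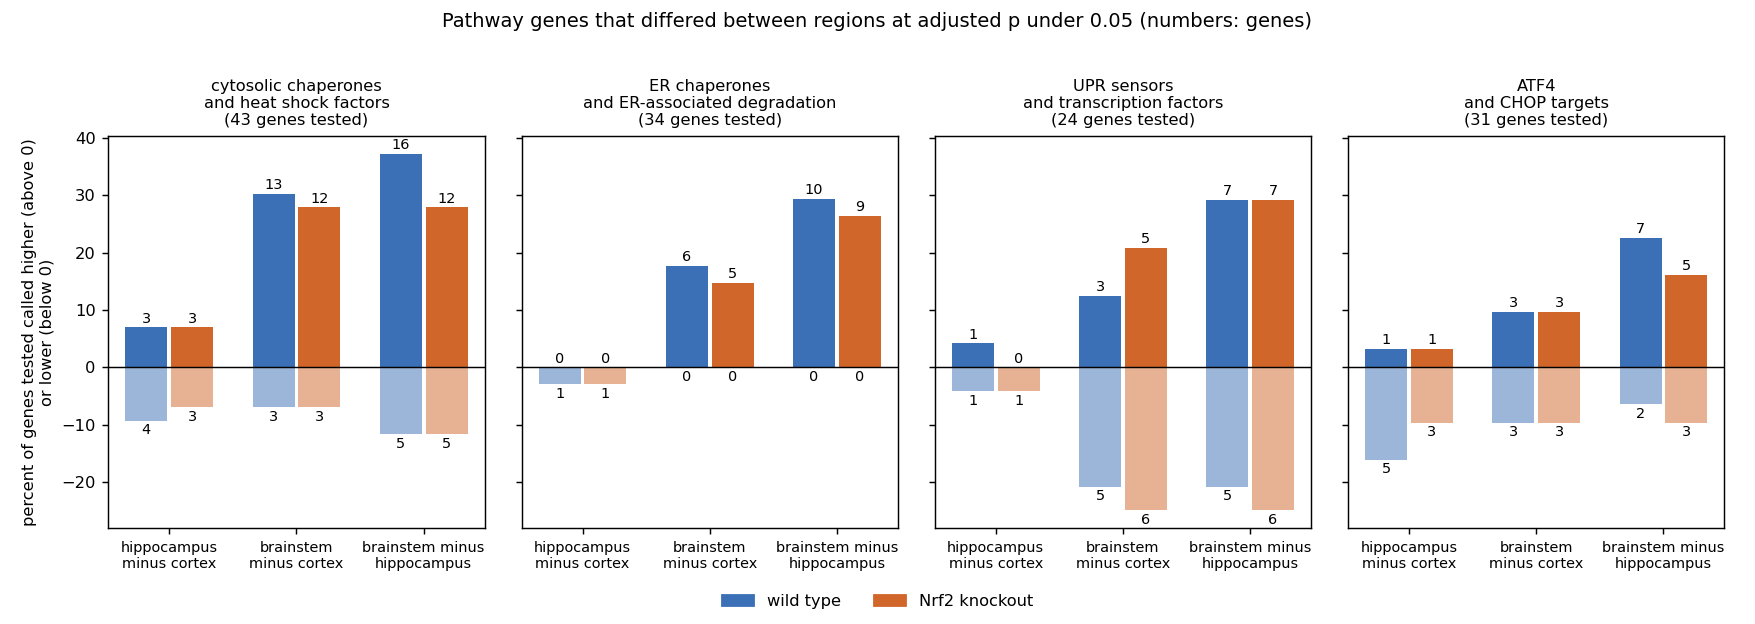
Percent of the tested genes of each pathway list (vertical axis) called higher (above 0) or lower (below 0, paler) in each comparison of regions, with wild type in blue and knockout in orange; numbers are genes. ER chaperones have 0 genes below 0 in both brainstem comparisons, while sensors and transcription factors lie on both sides.

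In the knockout comparisons the pathway genes with the smallest p did not pass. Averaged over regions, Hspb8 was at -0.28 ± 0.06 (limma adjusted p = 0.392), Derl2 at 0.18 ± 0.08 (0.715), Atf5 at 0.29 ± 0.08 (0.641) and the serine enzyme Phgdh at 0.29 ± 0.07 (0.551). By region the same genes led in most cases: Hspb8 was at -0.33 ± 0.11 in cortex and -0.28 ± 0.11 in hippocampus, and Phgdh at 0.34 ± 0.12, 0.27 ± 0.12 and 0.25 ± 0.12 in cortex, hippocampus and brainstem. Atf5 was at 0.31 ± 0.14 in cortex and 0.42 ± 0.14 in hippocampus, Derl2 at 0.20 ± 0.13 in cortex and 0.22 ± 0.13 in brainstem, Dnajc10 at 0.14 ± 0.09 in hippocampus, and Fkbp4 at -0.33 ± 0.15 and Creb3l1 at -0.86 ± 0.38 in brainstem. ER chaperones lay above 0 in 27, 25 and 22 of 34 in cortex, hippocampus and brainstem, with medians of 0.06, 0.06 and 0.10, none called. Over all genes 50.3%, 56.9% and 50.6% lay above 0 in these regions. Choroid plexus markers lay below 0 in 11 of 11 in knockout cortex and hippocampus (medians -0.80 and -1.04) and above 0 in 10 of 11 in brainstem, none called. Their summed levels overlapped between genotypes. They ran from 16.7 to 41.6 in knockout against 21.9 to 35.9 in wild-type cortex, 10.8 to 67.2 against 13.2 to 94.4 in hippocampus, and 25.3 to 56.0 against 25.7 to 30.3 in brainstem. These markers share arrays, so the counts are a description, and their part in the values above was not tested.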

How the data were processed

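Total RNA of each region, labelled with Cy3, was read on 1-colour Agilent arrays. Per the file headers, the deposited intensity values were background-subtracted within each array by Agilent Feature Extraction 10.7.3.1, with a design on mm9. From them, log2 values were taken, spots of a probe averaged, control and outlier spots left out, and each array's 75th percentile subtracted. A probe was kept if well above background on all arrays of a group (30067 probes), the brightest probe stood for a gene, and 22672 genes were tested with limma 3.58.1 (R 4.3.3), with 1 mean per group over 18 arrays, two-sided, with Benjamini-Hochberg adjustment. The authors' deposited table of intensity values served as an alternative only, because 7 of its 18 columns matched another array than the one titled. The normexp alternative used median spot signals. Same-numbered wild-type and knockout arrays deviated together in all 9 pairs (r 0.24 to 0.62). Same-numbered regions of a genotype were read as 1 mouse, an inference from the mouse numbers in the labels. Such pairs of regions had r from -0.05 to 0.71, with 14 of 18 over 0.1. Knockout comparisons were also fitted with the number, shared by both genotypes, as a block. Region comparisons were also fitted with each mouse of a genotype as a block. The series design states 3 independent RNAs per group, and p-values measure the spread between them. For the mean over regions, the fit counts the regions of a mouse as independent, so its p-values may be too small. Named genes were all members, per list and comparison up to 3 called rises and 3 falls (the smallest p where none was called), and the 2 nearest genes by correlation; not all are printed. The members and lists were chosen with earlier results of these data known. The fit was tested on simulated data with independent noise on each array, for the knockout comparisons in cortex and hippocampus only. The sharing of mice and slides was not simulated.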

Additional observations from a re-analysis of the deposited data

How the results depend on the processing

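Each member value was refitted under 26 alternatives: none reversed a called direction, and of 1040 knockout values of members none was called, though 38 changed sign. Arrays number 3 per group, and dim probes such as Atf3 depend on the background correction. Where a count moved, the cause was not tested. The replicate block was the number shared by both genotypes for knockout comparisons, and the single mouse for region comparisons. It gave 23 genes for the mean knockout effect and changed no knockout call of a member. Members called were 3 and 4 in wild type (hippocampus minus cortex, brainstem minus hippocampus). In knockout they were 1, 2 and 4 (with brainstem minus cortex second), and over both genotypes 2 and 7 in the brainstem comparisons. In the authors' table, columns as titled, 0 genes were called in all 4 knockout comparisons by limma; hippocampus minus cortex gave 4 genes in wild type, 0 in knockout and 8 over both, with 0 members and 0 pathway genes, and 2 members in each brainstem comparison over both. Normexp gave 4 genes for knockout brainstem and 2 members in hippocampus minus cortex (wild type) and in brainstem minus cortex (wild type, both genotypes). Quantile normalization gave 1 gene for the knockout effect in hippocampus and in brainstem against cortex, and 2 members in brainstem minus cortex (wild type, both). No filter gave 0 members in wild type and 2 over both in hippocampus minus cortex, and a filter on all 18 arrays gave 4 genes for knockout brainstem. Slide as a random block gave, in hippocampus minus cortex, 0 members in wild type and, over both, 1 member, 4621 genes and 16 pathway genes. Leaving out 1 array at a time, knockout genes in brainstem ran from 5 to 23 (23 without wild-type brainstem of mouse 3), the knockout effect from 0 to 1, 0 to 14 and 0 to 11 genes (hippocampus against cortex, brainstem against cortex, brainstem against hippocampus; the last 2 maxima also without that array), and wild-type hippocampus minus cortex from 2453 to 4456 genes and 8 to 20 pathway genes. Members called ran from 0 to 2, 1 to 2 and 1 to 4 in wild type, 0 to 1 and 1 to 3 in knockout, and 2 to 4 and 1 to 2 over both.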
